A study of Mus musculus with 16 samples.

Results

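The 2 lines of mouse embryonic stem cells labelled as controls were compared before and after 48 h of doxycycline by ChIP-seq of H3K27me3, trimethylation of lysine 27 on histone H3. Doxycycline is the drug that switches on the Firre transgene in the other lines of the study, and Firre is a long non-coding RNA transcribed from the X chromosome. The comparison therefore addresses what the drug and the time in culture do where no transgene is labelled. Members were chosen by their labels, with earlier results of these data known, and make up 8 of the 16 samples. They are 4 H3K27me3 and 4 input libraries, 1 of each for every line and time. WT control cells have the genotype WT, and the cells labelled KO control, here the KO-labelled line, have the genotype Firre KO. Both were grown on gelatin with serum, LIF and the inhibitors PD0325901 and CHIR99021, and both were sampled at 0 and 48 h of doxycycline. The other 8 samples came from a WT and a Firre KO line that carry the inducible Firre transgene, at the same times. No label names a culture kept for 48 h without the drug, so drug and culture time cannot be told apart. No label says whether a line is 1 clone or was cultured in replicate. The 2 lines serve as the replicates. The p-values reflect little beyond counting error in these libraries (median quasi-dispersion 1.02, where counting error alone gives 1), and they do not cover the spread between cultures.

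H3K27me3 is written by Polycomb repressive complex 2 and is bound by CBX proteins of Polycomb repressive complex 1. In embryonic stem cells it covers the silent genes of later development in broad domains, with the Hox clusters among the best known. Its domains commonly start from CpG islands, stretches rich in the dinucleotide CG. Doxycycline is a tetracycline antibiotic that can inhibit mitochondrial translation and matrix metalloproteinases.

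Total H3K27me3 counts over the 102957 consensus peaks were 13011769 at 0 h and 13804844 at 48 h in WT control, and 10380781 and 12390174 in the KO-labelled line. Input totals were 6184450 and 5983860 in WT control and 3340654 and 6238484 in the KO-labelled line. The Firre peak (chromosome X, 50569315 to 50570264, mm10) held 1 and 0 H3K27me3 counts in WT control, where a count of 0 allows up to 3. It held 164 and 177 in the KO-labelled line. Input counts there were 3 and 6 in WT control against 37 and 73 in the KO-labelled line, so the counts at Firre go against that line's label. WT control held fewer Firre counts than that line in H3K27me3 and input alike, so its label is not borne out here either, and both names are used as labels only. Chromosome 11 took 11.1% of input counts in the KO-labelled line at both times, against 8.46% and 8.42% in WT control. All changes below are therefore taken within a line. Within a line, 0 and 48 h differed by little more than sampling noise, with a chi-square per degree of freedom of 1.04 in WT control and 1.05 in the KO-labelled line for H3K27me3, and 1.01 in both for input.

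The sequences of 4 promoters are shown because they lie at start sites within the peaks with the clearest change. They are the 250 bases before the start of Neurog1 and of 3 genes of the HoxD cluster. Neurog1 was the highest ranked fall with an entry in the RefSeq promoter table. HoxD had the largest fall of the 4 clusters in the main fit, with HoxA close to it (log2 change -0.16 and -0.15). With input as an offset the fall of HoxD was the smallest of the 4. The HoxD genes are those with the most and the fewest CG among genes with 1 start site, and Hoxd1. Capitals mark each CG.
Neurog1: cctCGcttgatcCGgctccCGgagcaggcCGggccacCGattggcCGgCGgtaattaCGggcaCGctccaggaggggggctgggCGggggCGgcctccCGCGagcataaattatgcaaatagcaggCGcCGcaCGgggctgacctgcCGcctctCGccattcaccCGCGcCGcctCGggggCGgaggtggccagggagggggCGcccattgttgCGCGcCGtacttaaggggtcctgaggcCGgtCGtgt
Hoxd13: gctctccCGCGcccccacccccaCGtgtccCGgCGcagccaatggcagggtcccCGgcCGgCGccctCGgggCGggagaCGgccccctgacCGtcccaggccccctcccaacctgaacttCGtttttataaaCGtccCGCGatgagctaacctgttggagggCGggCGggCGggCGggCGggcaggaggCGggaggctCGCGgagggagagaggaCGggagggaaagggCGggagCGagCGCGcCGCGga
Hoxd1: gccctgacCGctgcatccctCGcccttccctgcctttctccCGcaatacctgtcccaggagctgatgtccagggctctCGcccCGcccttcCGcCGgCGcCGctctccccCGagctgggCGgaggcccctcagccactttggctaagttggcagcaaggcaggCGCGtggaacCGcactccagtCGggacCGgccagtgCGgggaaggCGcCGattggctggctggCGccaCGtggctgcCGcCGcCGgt
Hoxd4: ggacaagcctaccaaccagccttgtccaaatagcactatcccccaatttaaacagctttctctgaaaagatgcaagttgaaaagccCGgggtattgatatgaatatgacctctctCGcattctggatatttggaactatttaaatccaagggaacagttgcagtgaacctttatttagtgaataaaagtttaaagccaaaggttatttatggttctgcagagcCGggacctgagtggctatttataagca
In the build GRCm38.p6, which is mm10, these are chr13:56252181-56252430 on the minus strand, and chr2:74667975-74668224, chr2:74762730-74762979 and chr2:74721728-74721977 on the plus strand. They hold 29, 31, 24 and 3 CG. The CG dinucleotide reads the same on both strands, and its count here describes these letters only. Of the 32851 RefSeq promoters, 37.8% held 10 or more CG in this window, and of the 9904 whose start lay in any consensus peak, 32.0% did. Among the 98 whose start lay in a peak that fell in the control lines, 61.2% did. These 98 lie in 26 peaks, so many share a peak, as in the Hox clusters. The sets they are compared with were not matched for enrichment or width.

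After 48 h of doxycycline, H3K27me3 fell slightly in both control lines over a few peaks, mostly broad Polycomb domains, and no peak rose. Of 102908 peaks tested, 33 were lower at 48 h, which is 0.0321% of peaks, and 0 were higher (0.0%), by the quasi-likelihood F test of edgeR after Benjamini-Hochberg adjustment. At an unadjusted p under 0.05, 3246 were lower and 2708 higher, and 3 rises passed by limma-voom and 0 by DESeq2. All 33 were lower in both lines. The domains hold master regulators of development: the Hox genes, the homeobox genes Six2, Six3, Lhx1, Barhl2, Dlx5, Dlx6 and Nkx6-1, the paired-box gene Pax6, the zinc-finger genes Zic1 and Zic4, the T-box genes Tbx2, Tbx15 and Tbx18, the forkhead genes Foxb1, Foxc1 and Foxf1, and the nuclear receptors Nr2e1, Nr2f1 and Nr2f2. The change was small, with a median log2 change of -0.15. The calls rest on the line term, on the scaling and on the test used. Without a term for the line, by DESeq2, with input as an offset, or with an offset that follows enrichment over input, 0 peaks passed. The DESeq2 fit kept the line term, and DESeq2's size factors within edgeR left 31 of the 33 calls. In a fit of all 8 H3K27me3 libraries 26 passed, and with any 1 control-line library left out of it 3 or 4 did.

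The HoxD peak (chromosome 2, 74637183 to 74789361) covers Hoxd1 to Hoxd13 and Evx2. Its H3K27me3 level, in CPM (counts scaled to a common library size after TMM), was 648 at 0 h and 574 at 48 h in WT control, and 744 and 676 in the KO-labelled line. Each line was lower at 48 h, while the levels of the 2 times overlapped, since the lines start from different levels. The 48 h level was 0.886 of the 0 h level in WT control (95% exact binomial interval 0.859 to 0.914) and 0.909 (0.881 to 0.938) in the KO-labelled line. The log2 change was -0.16 ± 0.016 (SE of the fit over n = 2 lines, edgeR adjusted p 1.50e-17). Here and below, the SE mostly follows read depth and is not a spread between the lines. Input over this peak changed by -0.096 ± 0.039 on the log2 scale (unadjusted p 0.0109), in the same direction as H3K27me3.

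The HoxA peak went from 673 to 614 CPM in WT control and, for the KO-labelled line, from 818 to 729. Both lines fell to a similar extent, with 48 h at 0.911 (0.885 to 0.939) and 0.891 (0.865 to 0.919) of 0 h. Its log2 change was -0.15 ± 0.015, and input changed by -0.0063 ± 0.040. The HoxB cluster lay on chromosome 11, which takes a larger share of all counts in the KO-labelled line. Summed over its 6 peaks, it went from 926 to 852 CPM in WT control and, for the KO-labelled line, from 1504 to 1378, a log2 change of -0.12 ± 0.013. The HoxC cluster went from 572 to 539 and from 738 to 690, a log2 change of -0.092 ± 0.017 that was the smallest of the 4. Hoxc13, which had a peak of its own, did not pass, with -0.028 (adjusted p 0.884). The HoxC direction depends on scaling: with the offset that follows enrichment HoxC stood at 0.0047, and HoxA, HoxB and HoxD at -0.019, -0.011 and -0.048.

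**Figure D1:**
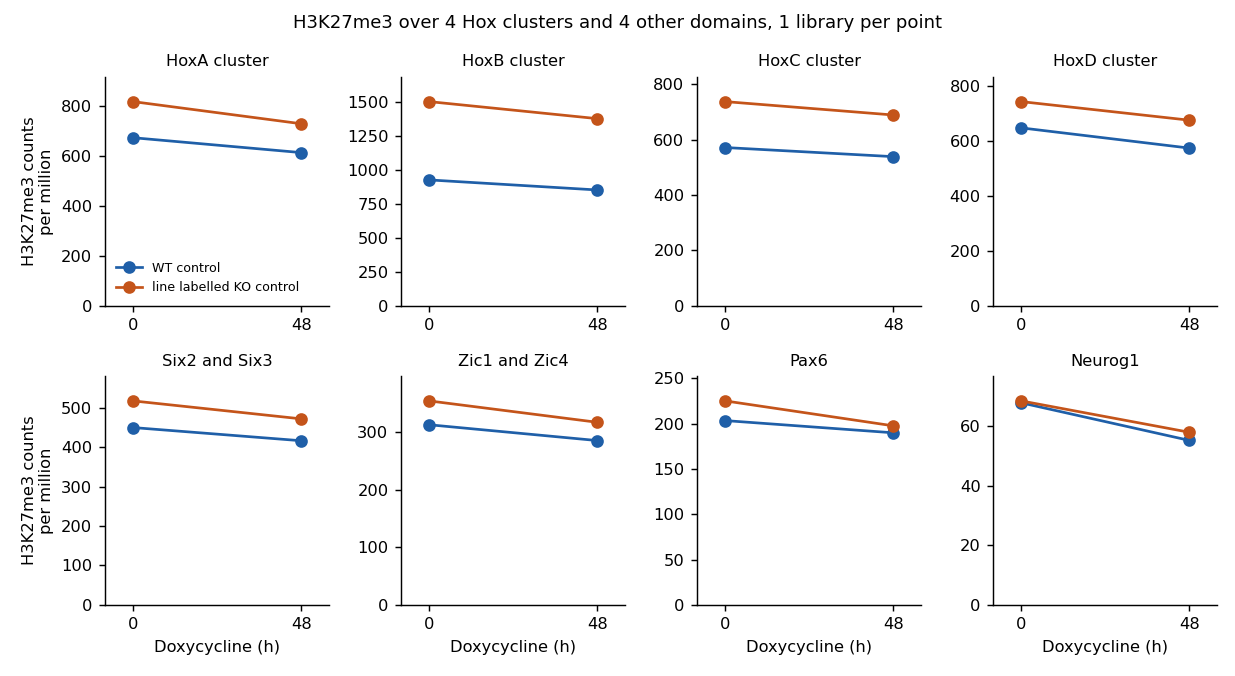
H3K27me3 CPM (vertical axes, from 0) at 0 and 48 h of doxycycline over the 4 Hox clusters and the domains of Six2 and Six3, Zic1 and Zic4, Pax6, and Neurog1, with 1 library per point and a line joining each cell line. Every line is lower at 48 h; HoxA goes from 673 to 614 in WT control and, for the KO-labelled line, from 818 to 729.

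Domains of neural regulators fell by similar amounts. Neurog1, a proneural transcription factor, had the largest relative change among the 30 fallen peaks of 10 kb or more (chromosome 13, 56244885 to 56259350). Its counts were 897 and 778 in WT control and 695 and 706 in the KO-labelled line at 0 and 48 h. In CPM these are 67.8 and 55.2, and 68.4 and 57.9, so that both 48 h levels were below both 0 h levels. The log2 change was -0.27 ± 0.052 (adjusted p 0.00154), with input at 0.067. The Zic1 and Zic4 peak (chromosome 9, 91334098 to 91424709), over 2 regulators of the early neural plate, went from 313 to 286 CPM and from 355 to 318, and its log2 change was -0.15 ± 0.023, while input changed by -0.11 (unadjusted p 0.0428). Pax6, a regulator of eye and forebrain (chromosome 2, 105641734 to 105693783), went from 203 to 190 and from 225 to 198. Pou3f2, a POU-domain factor of neurons (chromosome 4, 22474320 to 22505648), went from 114 to 100 and from 128 to 110, a log2 change of -0.20 ± 0.039. The nuclear receptor gene Nr2f1 (chromosome 13, 78159676 to 78223401) went from 209 to 187 and from 230 to 201, a log2 change of -0.18 ± 0.029. Foxb1, a forkhead gene of the neural tube, had a log2 change of -0.16 ± 0.034.

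Mesodermal and other regulators were among the remaining largest falls. Tbx18, a T-box gene of heart and somites (chromosome 9, 87720465 to 87753302), went from 79.5 to 68.7 CPM in WT control and, for the KO-labelled line, from 100.1 to 84.3, a log2 change of -0.23 ± 0.045, with input at -0.11. Foxc1, a forkhead gene of head and heart mesenchyme (chromosome 13, 31791178 to 31824451), went from 116 to 103 and from 126 to 106, a log2 change of -0.21 ± 0.039, with input at -0.089. The peak over Lgr5, a receptor for R-spondins and a target of Wnt signalling, had a log2 change of -0.23 ± 0.050, with input at -0.087. Slc10a4, a member of the bile acid transporter family found in synaptic vesicles, had -0.22 ± 0.049, with input at -0.11. Tbx15, a T-box gene of limb and skeleton, had -0.16 ± 0.034 and Tcf12, a bHLH partner of proneural and myogenic factors, -0.18 ± 0.038. The nuclear receptor gene Nr4a3 passed just inside the threshold (adjusted p 0.0492), and its lines differed in size, with 48 h at 0.966 (0.888 to 1.05) of 0 h in WT control and 0.782 (0.714 to 0.855) in the KO-labelled line.

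A small change passes more readily at peaks with many counts, so the test itself favours wide and deep peaks. The peaks that fell were of this kind. Their median width was 47957 bp against 2356 bp for all peaks, and 30 of the 33 were at least 10 kb wide, a width reached by 11.1% of all peaks. A gene's start site lay in 26 of them and in 7.01% of all peaks. The fold enrichment that the authors' peak caller gave each peak had a median of 3.03 in them and 1.53 overall. The 30 wide peaks had log2 changes from -0.27 to -0.11. In input, 23 of these 30 were below 0, with a median of -0.031 and a range from -0.20 to 0.099, where 50.3% of all input peaks were below 0. Input had an unadjusted p under 0.05 at 4 of the 33, against 4.91% of all input peaks, and the lowest input value of the wide peaks was at Pcdh7, a protocadherin gene (-0.20, with H3K27me3 at -0.15). The part of input in these falls was not tested. The other 3 fallen peaks were under 10 kb, with mean counts from 26.3 to 69.8. One lay in Mark4, a kinase that acts on microtubule-associated proteins (chromosome 7, 19428736 to 19431083), with 74 and 49 counts in WT control and 80 and 51 in the KO-labelled line, a log2 change of -0.80 ± 0.18. The other two overlapped no gene.

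**Figure D2:**
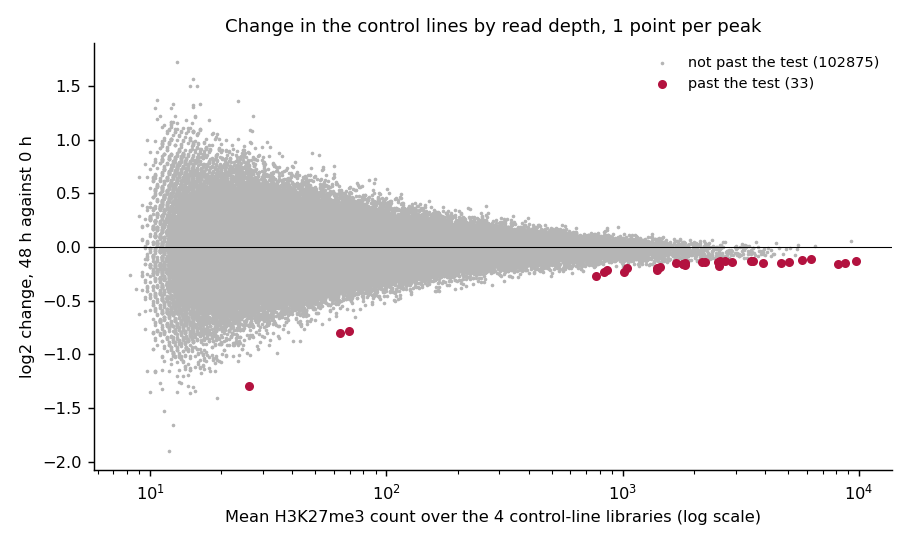
Log2 change from 0 to 48 h in the control lines (vertical axis) against the mean H3K27me3 count over the 4 libraries (log horizontal axis), with 1 point per peak and the 33 peaks past the test in red. The red points lie below 0, and all but 3 of them are among the deeply covered peaks at the right.

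No rise in a peak passed the test, and the 8 with the smallest p that met the depth and direction conditions are given as values only. They lay in Gm33294, Gm31641, Col26a1, Ksr2, Nrxn3, Zfp583, Pakap and Rph3a. Gm33294 was nearest to the threshold, with 230 and 311 counts in WT control and 197 and 317 in the KO-labelled line, and a log2 value of 0.38 ± 0.091 (adjusted p 0.0733). Col26a1, a collagen gene, had the deepest peak of the 8, with 957 and 1152 counts and 711 and 984, and a log2 value of 0.19 ± 0.047 (adjusted p 0.113). In the transgene lines the 8 had log2 values from -0.30 at Zfp583 to 0.22 at Pakap.

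To ask whether the falls followed the strength of the mark, peaks were ranked by H3K27me3 over input in the transgene lines, whose libraries are not part of the control-line change. The median log2 change in the control lines went down from class to class: 0.0078 in the lowest 50% of peaks, 0.00092 from 50 to 90%, -0.014 from 90 to 95%, -0.026 from 95 to 98%, -0.041 from 98 to 99% and -0.072 in the top 1%. In the top 1%, 1027 peaks with a median of 1.75-fold over input, 76.9% were below 0 and 27 of the 33 fallen peaks lay there. WT control had a median of -0.070 in this class and the KO-labelled line -0.078. The 2 transgene lines had -0.058 each, although their own libraries did the ranking. Input had -0.026 in WT control and 0.0048 in the KO-labelled line. These peaks took 5.68% of WT control H3K27me3 counts at 0 h and 5.43% at 48 h, and 6.18% and 5.88% in the KO-labelled line, against 3.36% and 3.32%, and 3.36% and 3.36%, of input. The lowest class took 25.3% and 25.5% in WT control. The share of H3K27me3 reads in strongly marked peaks was thus lower at 48 h in both lines, and its part in the falls of single peaks was not tested.

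**Figure D3:**
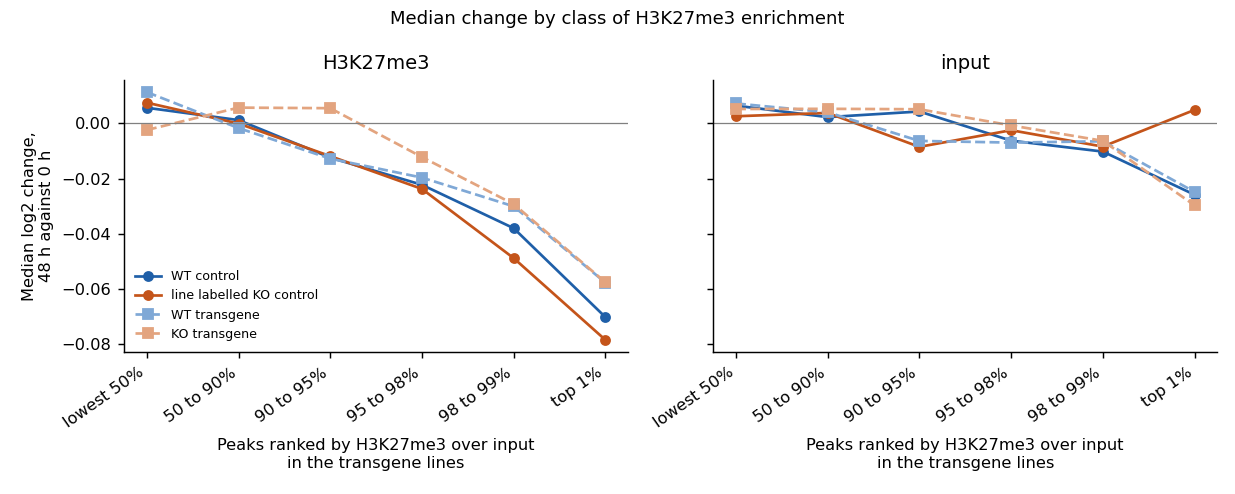
Median log2 change from 0 to 48 h (vertical axes) over 6 classes of peaks ranked by H3K27me3 over input in the transgene lines (horizontal axes), for H3K27me3 (left) and input (right), with 1 line per cell line and transgene lines dashed. In H3K27me3 the control lines go from near 0 in the lowest class to -0.070 and -0.078 in the top 1%; the input medians of the control lines lie between -0.026 and 0.0064.

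Within the top 1%, the median was -0.067 in the 331 peaks under 5 kb, -0.073 in the 428 from 5 to 20 kb and -0.073 in the 268 of 20 kb or more. The input medians of these classes were -0.046, -0.014 and -0.011, so that input was lowest in the narrow peaks, and 62.2%, 79.4% and 91.0% of the peaks were below 0 in H3K27me3. No peak under 5 kb in this class passed the test, against 25 of those of 20 kb or more. Peaks with a start site had a median of -0.076 (508 peaks) and those without -0.062 (519 peaks). Across all 102957 peaks, the changes of the 2 lines had a Pearson correlation of 0.011, and among the 1000 deepest 0.37 (-0.0049 in input), given as a description, since peaks share libraries and depth.

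The fall at these peaks was also seen in the transgene lines, whose H3K27me3 libraries are separate from those of the control lines. Of the 33 peaks, 29 were lower in both transgene lines, against 25.8% of all peaks, and their median log2 change there was -0.10. Most of the 33 (27) lay in the top 1% by enrichment. In that class, 69.1% of peaks were below 0 in the WT transgene line and 68.5% in the KO transgene line, each line taken singly. Falls in the transgene lines were thus common among strongly marked peaks. Tbx18 had -0.24 ± 0.047 and Tcf12 -0.21 ± 0.039 in the transgene lines. Nr4a3 had 0.033 and Neurog1 -0.064 there, and both were among the 12 largest falls named in the control lines. In the transgene lines 66 peaks passed as lower, 0.0641% of those tested, and 12 of them were among the 33. These 12 are 36.4% of the peaks lower in the control lines and 18.2% of those lower in the transgene lines. The difference between transgene and control lines passed at 0 of the 33 by edgeR and by DESeq2 and at 3 by limma-voom, where 0.00583% of all peaks passed as lower by edgeR. At an unadjusted p under 0.05 it passed at 8 of the 33, against 4.90% of all peaks. The 33 were picked by control-line libraries that also enter this difference, so these shares do not show whether the transgene lines differ there. Of the 3 narrow peaks, 2 were below 0 in the transgene lines, with values from -0.41 to 0.46 over the 3.

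**Figure D4:**
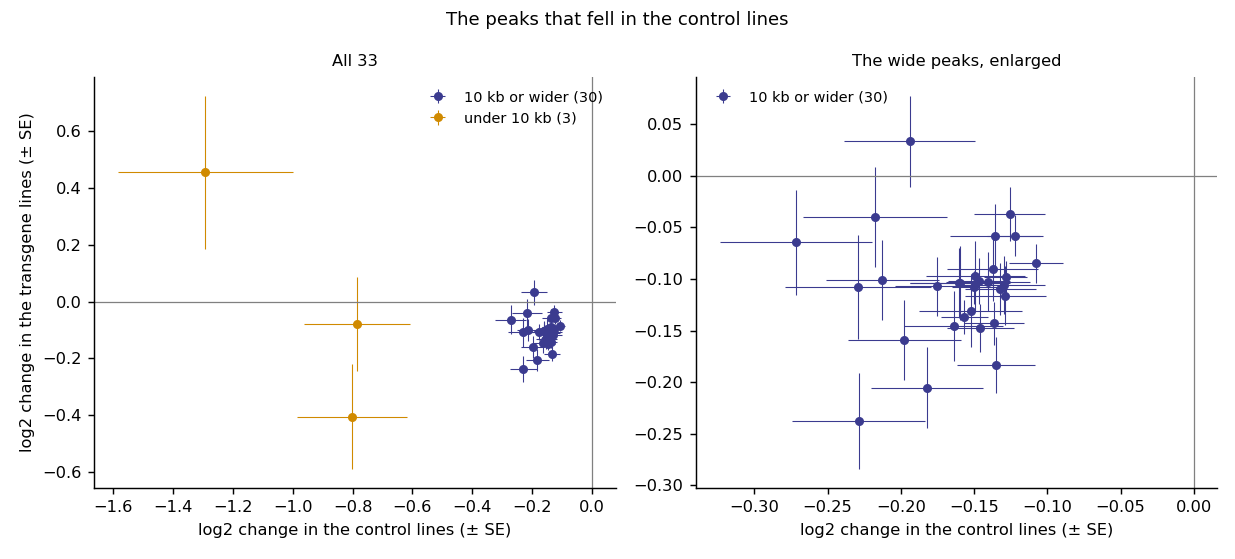
Log2 change in the transgene lines (vertical axis) against the change in the control lines (horizontal axis) for the 33 peaks that fell in the control lines, with bars of 1 SE, for all 33 (left) and the 30 peaks of 10 kb or more enlarged (right). In the transgene lines 29 of the 30 wide peaks lie below 0, with a median of -0.11.

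Peaks were also summed over each gene with 2000 bp on either side. Neighbouring regions can share a peak, so the counts of regions hold some peaks more than once. Of 18361 gene regions tested, 116 fell (0.632%) and 5 rose (0.0272%). All 116 were lower in both control lines, with a median log2 change of -0.14, and 102 of them had at least 1.2-fold H3K27me3 over input in the transgene lines, a level reached by 17.7% of all regions. In input, 72 of the 116 were below 0, with a median of -0.016. In the transgene lines 112 were below 0, where 53.3% of all regions were, and 46 passed as lower, where 0.773% of all regions did. Both shares are over regions of all levels of enrichment. The difference between transgene and control lines passed at 0 of the 116, where 0.0436% of all regions passed as lower. These regions too were picked by control-line libraries that enter the difference. The same alternatives that ended the calls of peaks left 0 regions (no line term, DESeq2) or 2 (either offset).

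The 5 longest genes with a called region were Prkg1, Lrmda, Gm37013 (in 1 region with Gm38666 and Gm38667), Zfhx3 and Gmds. Prkg1, a cGMP-dependent protein kinase gene, held 108 peaks and had a log2 change of -0.051 ± 0.014, the smallest of any called region. Lrmda held 91 peaks and had -0.059 ± 0.014. Zfhx3, a large zinc-finger homeobox factor, had -0.072 ± 0.017. Gmds shares its end with the Foxc1 domain and had -0.19 ± 0.037. The 5 regions that rose were Dnhd1, Pde9a, Gm12092, Gm33135 and Gm32507. Dnhd1, a dynein heavy chain domain gene, had 1235 and 1478 counts in WT control and 970 and 1304 in the KO-labelled line, a log2 change of 0.17 ± 0.041 (adjusted p 0.0145). Pde9a, a cGMP phosphodiesterase gene, rose by 0.19 ± 0.053 (adjusted p 0.0474). In the transgene lines 3 of the 5 were above 0.

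Among the gene lists, those of developmental regulators held most of the calls, and they were more strongly marked than regions in general. Hox regions had a median H3K27me3 over input of 2.17-fold in the transgene lines. Neuroectoderm regulators stood at 1.76, those of mesoderm at 1.55 and those of endoderm at 1.48. Across all regions the median was 0.95, and 0.632% fell. The lists were not compared with regions of similar enrichment, so whether they fell more than such regions was not tested. The 39 Hox genes lie in 6 regions, of which 5 fell and 0 rose. Of the 23 regions of neuroectoderm regulators, 10 fell, all 23 were below 0 in both lines, and the list median was -0.12, against -0.0081 over all regions. Beside the genes above, the falls in this list included Pax3, Dlx5, Nkx6-1, Six3, Otx1 and Emx2. Pax3, a regulator of neural crest and muscle, had a log2 change of -0.099 ± 0.021, and Six3, a forebrain and eye regulator, -0.12 ± 0.019. Of 24 regions of mesoderm regulators, 5 fell: Foxc1, Tbx18, Foxf1, Eomes and Hand2, with a list median of -0.055. Eomes, a T-box factor of early mesoderm and trophoblast, had -0.20 ± 0.056, while its input changed by -0.38. Hand2, a bHLH factor of heart and limb, had -0.10 ± 0.028. Of 12 endoderm regions, 2 fell: Foxa1, a pioneer factor of endoderm (-0.13 ± 0.032), and the region shared by Pdx1 and Cdx2 (-0.10 ± 0.026). In input, the Hox list had a median of -0.014, neuroectoderm regulators -0.027, mesoderm regulators -0.047 and endoderm regulators 0.010, so that for mesoderm regulators the input median (-0.047) lay close to that of H3K27me3 (-0.055).

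Genes of the Polycomb machinery itself carry the mark in part. Of their 10 regions 3 fell, among them those of Cbx2 and Bmi1, which code for a chromobox and a ring-finger subunit of Polycomb repressive complex 1. Cbx2 had -0.12 ± 0.020 and Bmi1 -0.12 ± 0.033. The core subunits Ezh2, Eed and Suz12 of Polycomb repressive complex 2 had no peak within the window.

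Lists tied to the drug or the medium held few calls, and they were weakly marked. Median H3K27me3 over input was 1.19-fold for Wnt and MEK pathway targets and 0.97 for the ATF4 stress response. It was 0.91 for glycolysis and 0.95 for matrix metalloproteinases, so few calls here do not show that these genes were spared. Among Wnt and MEK pathway targets, 1 of 17 regions fell: Dusp4, a phosphatase that acts on MAP kinases, with -0.20 ± 0.052 (adjusted p 0.0278). Lgr5 is in this list too: a single peak over it passed (-0.23 ± 0.050, edgeR adjusted p 0.0209), while its summed gene region did not. Of the 11 regions of the ATF4 stress response, which mitochondrial translation inhibitors can induce, 0 passed and 3 were lower at an unadjusted p under 0.05, where 1157 of all 18361 regions were. The list median was -0.086, and -0.087 in the transgene lines. Atf3, a transcription factor of this response, had 432 and 376 counts in WT control and 387 and 410 in the KO-labelled line, a log2 value of -0.24 ± 0.073 (adjusted p 0.113). Of 8 glycolysis regions 0 passed, also unadjusted, and of 17 matrix metalloproteinase regions 0 passed and 1 was lower unadjusted. Mmp2 had a log2 value of -0.10 ± 0.055 and Mmp9 -0.043 ± 0.040.

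Lists of genes active in these cells had few regions. A peak was assigned to 3 of 20 pluripotency genes and 3 of 18 housekeeping genes, and 0 of these regions passed. Dppa3, a germ cell and naive pluripotency gene, had 316 and 386 counts in WT control and 148 and 220 in the KO-labelled line, a log2 value of 0.23 ± 0.090 (adjusted p 0.30), the only 1 of the 6 regions with an unadjusted p under 0.05. Of 8 primed epiblast regions 0 passed and 3 were lower unadjusted, with Otx2, a head and epiblast homeobox gene, at -0.13 ± 0.044. Of 22 imprinted regions 0 passed and 5 were lower unadjusted, and of 11 germline regions 0 passed. Among markers of other cell types, 1 of 10 fibroblast regions fell (Tbx15), 2 of 10 trophoblast regions (Cdx2 and Eomes) and 0 of 9 primitive endoderm regions. Cdx2 and Eomes are held by the endoderm and mesoderm lists as well, while Tbx15 is in the fibroblast list alone. H3K27me3 over a gene does not measure its RNA. All these 0 counts are from edgeR with adjustment over all regions.

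**Figure D5:**
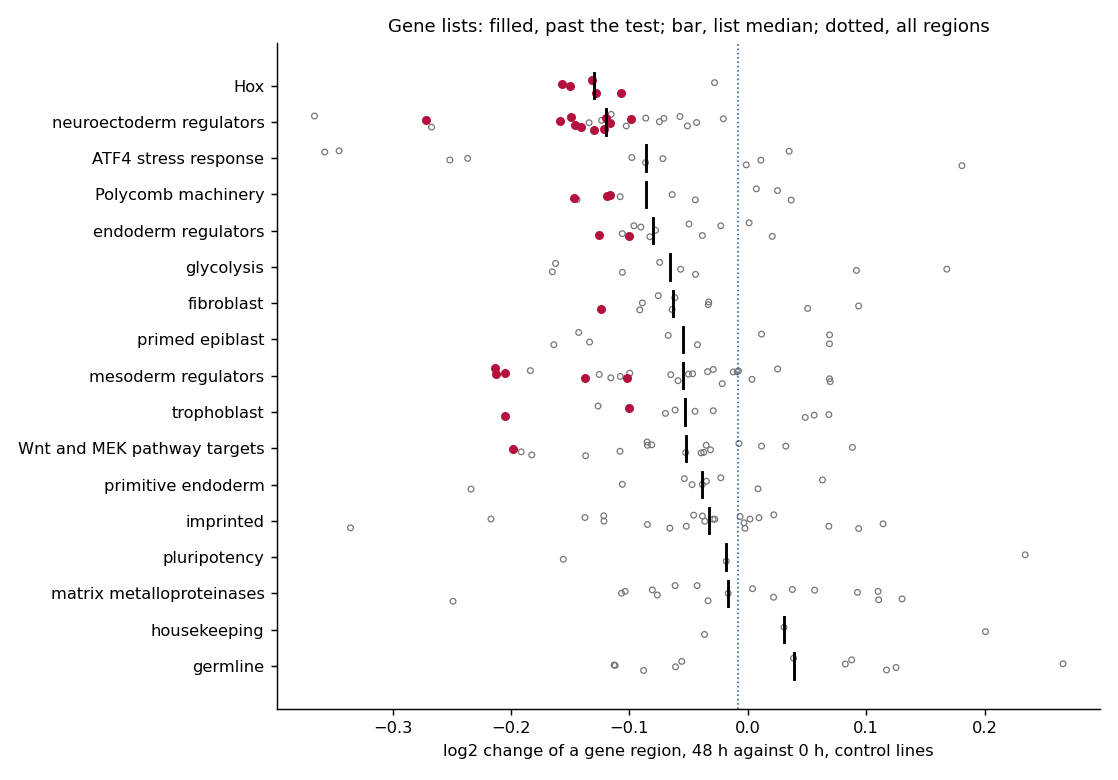
Log2 change from 0 to 48 h in the control lines (horizontal axis) for each gene region of 17 lists (rows), with filled points past the test, black bars at list medians and a dotted line at the median of all regions (-0.0081). The Hox and neuroectoderm rows lie furthest to the left, with medians of -0.13 and -0.12.

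The X chromosome, which has 653 peaks, took 0.352% and 0.339% of H3K27me3 counts in WT control at 0 and 48 h, and 0.349% and 0.342% in the KO-labelled line. In WT control the ratio of 48 to 0 h was 0.963 (95% exact binomial interval 0.95 to 0.975), and for the KO-labelled line it was 0.982 (0.968 to 0.995). In input it was 0.990 (0.966 to 1.01) and 1.01 (0.983 to 1.04). For the autosomes the H3K27me3 ratio lay between 0.993 and 1.005 for WT control, and for the KO-labelled line between 0.994 and 1.004. No X-linked peak passed, and the median was -0.047. Of the 573 X peaks that were ranked, 505 lay in the top 5% by enrichment, where the median over all peaks was -0.038. The transgene lines had X ratios of 0.957 and 0.952. The intervals cover counting error only.

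In 6 peaks the change in the transgene lines was below that in the control lines (0.00583% of peaks), and the control lines give the level without the transgene as labelled. Rapgef4, an exchange factor for Rap GTPases, had 768 and 770 counts in WT control and 610 and 740 in the KO-labelled line, a log2 value of -0.040 ± 0.054. Duox1, a hydrogen peroxide-producing oxidase gene, had 78 and 103, and 43 and 73, with 0.38 ± 0.17. The neighbouring Shf had 57 and 81, and 26 and 35, with 0.34 ± 0.21. Il9r had 415 and 465, and 449 and 527, with 0.017 ± 0.067, and Cdh3, the P-cadherin gene, 450 and 495, and 335 and 417, with 0.048 ± 0.070. At Firre the value of -0.16 ± 0.16 comes from the KO-labelled line, since WT control had 1 and 0 counts. None of the 6 passed in the control lines (adjusted p from 0.816 to 0.993 by edgeR).

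The input libraries, which measure chromatin without the antibody, showed no change that passed. Of 94469 peaks tested, 0 were lower and 0 higher (0.0% each) by edgeR, and 0 passed by DESeq2 or limma-voom. At an unadjusted p under 0.05 there were 2368 lower and 2267 higher, 4.91% of peaks, against 5.79% in H3K27me3. Input totals were below the H3K27me3 totals of the same line and time throughout.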

How the data were processed

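H3K27me3 ChIP-seq and input libraries were grouped by the genotype, antibody and time labels. Libraries came from formaldehyde-fixed, sonicated chromatin, per the labels' protocols. The authors deposited raw counts, as whole numbers and with no scaling, for every library over 1 common set of peaks. The deposited peak list gave a score, a fold enrichment (ratio) and a −log10 q-value for each peak, which the authors' peak caller set for the peak and not for a library. Per the submitters' processing notes, the build was mm10 and the tools included MACS2 2.2.71, DESeq2 1.26.0, BWA 0.7.17-r1188 and featureCounts. The sources used here do not give which libraries the peaks were called on. No spike-in is named, so counts are relative to the library and a change in the total of the mark cannot be seen. Peak starts are printed as deposited. Genes, spans and promoters came from RefSeq tables of GRCm38.p6, which give no exons here. Genes with the same set of peaks share 1 region, which made 18364 regions, and a peak can count in several regions.

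Changes were tested with the quasi-likelihood F test in edgeR 4.0.16 under R 4.3.3, with TMM factors, filterByExpr, line and time as terms and Benjamini-Hochberg adjustment at 0.05. With 4 libraries it has 1 residual degree of freedom, and the prior degrees of freedom were infinite, so SEs mostly follow read depth. The estimated negative binomial dispersion lay at the lower end of its search range and gave SEs below counting error at the deepest peaks. It was therefore held at 0 and the quasi-dispersion at 1 or more, a choice made after the data were seen, with the estimated dispersion as an alternative. Changes per line used a pseudocount of 0.5, and ratios of counts have 95% exact binomial intervals, which cover counting error only. Transgene and control lines were compared by the transgene by time term over all 8 H3K27me3 libraries. Enrichment was H3K27me3 over input in the transgene lines, for peaks with at least 20 input counts. The test was checked on simulated counts with sampling noise alone. A log2 change of 0.15 passed at 1 of 200 changed peaks with a mean count of at least 20. At a mean count of at least 1000 it passed at 103 of 200. The simulation held no spread between cultures, so it does not check calls that such spread would give.

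Named peaks were the 12 largest falls above the median depth that were called, in the same direction in both lines and over a gene, and, since fewer than 5 rises were called, the 8 rises with the smallest p. Also named were list members by smallest p, the Hox clusters, Firre, peaks called in the transgene by time test and the 5 longest called genes. Other genes given in the text were chosen after their values were seen, as were the X chromosome, the width classes and the regions that rose. The members, gene lists and rules were chosen with earlier results of these data known. Alternatives were total counts, DESeq2's size factors in edgeR, DESeq2 1.42.0, limma-voom (limma 3.58.1), other filters, no line term, all 8 libraries, each library left out, 2 offsets and gene windows of 0 and 10000 bp. Some genes that the lists hold are not reported here.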

Additional observations from a re-analysis of the deposited data

Results flagged for a closer look

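In 6 peaks the change from 0 to 48 h differed between the transgene lines and the control lines by the transgene by time term of edgeR (adjusted p at 0.05). The log2 difference, transgene minus control lines, was -0.59 at Il9r, -0.86 at Rapgef4, -1.98 at Duox1, -1.74 at Shf, -0.48 at Cdh3 and -1.97 at Firre. In each, both transgene lines were lower at 48 h. DESeq2 called 1 difference. With 1 sample per condition, no group could be searched for a sample that stands apart.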

How the results depend on the processing

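The number of peaks that fell in the control lines (33) was 84 by limma-voom and 0 by DESeq2, without the line term, with input as an offset and with an offset following enrichment. It was 3 to 4 with a control-line library left out (WT control at 0 or 48 h, 4; the KO-labelled line at 0 or 48 h, 3), in a fit of the remaining 7 libraries in which the lone sample of that line adds nothing to the time change. Other settings gave 25 to 36 falls, and 25 of the 33 passed with total counts. The number of peaks that rose (0) was 1 with total counts, with a mean count of at least 50 and with the estimated negative binomial dispersion, which was added after seeing the data, and 3 by limma-voom. The number of gene regions that fell (116) was 69 with total counts, 0 by DESeq2 and without the line term, 2 with either offset, and 7 to 18 with a library left out. The number that rose (5) was 0 under these except total counts, 2 in all 8 libraries and 8 with a window of 10000 bp. With libraries left out no region (0) rose. In input 0 peaks passed under each alternative run. The number of peaks lower in the transgene than in the control lines (6) was 1 by DESeq2, and 3 with either WT control or either KO transgene library left out. The number of those higher (0) was 4 by limma-voom and 1 with a library of the KO-labelled line left out.

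The Hox clusters kept their direction but did not pass by DESeq2 (HoxA -0.15, HoxB -0.12, HoxC -0.091, HoxD -0.16), without the line term (-0.14, -0.10, -0.081, -0.15), with input as an offset (-0.13, -0.086, -0.15, -0.052) and, apart from HoxC, with the offset following enrichment (HoxA -0.019, HoxB -0.011, HoxD -0.048). HoxC reversed to 0.0047 with that offset and did not pass with a control-line library left out (-0.098 to -0.086). Other reversals were Hoxb1 (0.023) and Hoxc4 (0.011) with the offset following enrichment, Eomes (0.20) with input as an offset, and the Firre difference with a library of the KO-labelled line left out (1.05 and 1.02; -2.01 to 1.05 over the libraries left out). The median of the strongest peaks (-0.072) was -0.038 in the top 5%, -0.064 with total counts and -0.078 in the KO-labelled line alone. Of the 42 named results, 41 no longer passed by DESeq2, 10 with total counts and 31 to 33 with a control-line library left out. The causes were not tested. Read depth limits what can pass, since the median peak tested had a mean count of 53.3. No paired analysis was possible because the replicate number is 1 in every group, as far as that number goes; the test itself pairs the times by line, and without the line term 0 peaks passed.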

Other observations

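Of the 116 gene regions that fell, 31 held only long non-coding RNA genes (26.7%, against 40.6% of all regions), with a median log2 change of -0.14. They include A830082K12Rik at the Nr2f1 domain (-0.18 ± 0.028) and Gm36767 at the Tbx18 domain (-0.23 ± 0.045), so their values follow the peaks of these domains. Other regions that fell outside the gene lists were Wnt8a, a Wnt ligand gene (-0.13), Dact1, an inhibitor of Wnt signalling (-0.27), and Sp8, a zinc-finger factor of limb and brain (-0.22). These genes were chosen after their values were seen.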
